A study of Drosophila melanogaster with 12 samples.

Results

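The control group of this series consists of 3 RNA-seq libraries, out of 12 libraries in 4 groups, and was selected by its label alone. The cells were sorted by flow cytometry from the posterior midgut (regions R3 to R5) of virgin Drosophila melanogaster females and are labelled intestinal stem cells. The genotype was esg-Gal4, UAS-GFP/+; tubGal80TS/+, obtained by crossing the driver line to Canton-S, so the control cells carried no svb transgene. The driver is active where the escargot (esg) gene is active, and a Gal80 repressor that fails at 29 °C kept it silent during the first 3 days of adult life, spent at room temperature. The females then spent 6 days at 29 °C and were 9 days old at dissection. Each library came from a pool of more than 20 females, prepared on a different calendar day, and the tissue was dissociated by enzyme digestion at 37 °C for 10 minutes. The table holds raw counts for 8802 genes, and the column totals were 5557969, 5625256 and 6575392 counts for replicates 1, 2 and 3. Levels are given as CPM, the count divided by the column total and multiplied by 1000000, and differences in level between genes are read after division by exon length (CPM per kilobase). Ranks by CPM give a gene's share of the counts, which also grows with its length.

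The adult midgut epithelium is renewed by stem cells that divide to give another stem cell and a committed daughter. A stem cell presents the Notch ligand Delta (Dl) to its daughter, Notch activity turns that daughter into an enteroblast that expresses targets such as klu and genes of the Enhancer of split complex, and the enteroblast matures into a large absorptive enterocyte. A separate path marked by the homeodomain factor prospero (pros) leads to the hormone-secreting enteroendocrine cells. Stem cells and enteroblasts together are called progenitors, and both express esg.

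A gene was called detected when it had at least 10 counts in each of the 3 libraries. Of the 8802 genes, 6987 were detected, which is 79.4%, and 96 had 0 counts in every control library. A floor of 3 counts corresponded to 0.540, 0.533 and 0.456 CPM in replicates 1, 2 and 3, and it covers counting error only, since amplified reads are not independent molecules. The 10 most abundant genes took 8.27 ± 0.157% of the counts and the 100 most abundant took 29.6 ± 0.707% (SD, n = 3 each). No library repeated another by the chi-square per degree of freedom, taken for each pair over genes with at least 10 counts in the pair. It was 26.3 for replicates 1 and 2, 7.90 for replicates 1 and 3 and 20.1 for replicates 2 and 3. Pure counting error gives about 1. Across the 5422 genes with a mean of at least 10 CPM, Pearson's r of log2(CPM + 0.5) was 0.953, 0.973 and 0.972 for these pairs, as a description across genes.

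Replicate 2 stood apart in its content of short transcripts and of mitochondrial transcripts, not all of which are short (mt:CoI has 1536 exon bases). Counts of annotated small nucleolar RNAs summed to 0.676% of replicate 1, 0.202% of replicate 2 and 0.400% of replicate 3, and genes of the mitochondrial genome to 1.48%, 0.790% and 1.61%. For genes with exon lengths up to 300 bases the median log2 ratio of replicate 2 to the mean of the others was -0.91 (36 genes). It was -0.17 for longer genes of up to 1000 bases (410 genes), 0.04 for the next class of up to 2000 bases (1478 genes) and 0.11 for that of up to 5000 bases (2425 genes). Above 5000 bases it was 0.09 (1003 genes).

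The progenitor markers were abundant and close to each other in the 3 libraries. The zinc finger factor esg (FBgn0001981, chromosome 2L, 15333866 to 15336138), which maintains progenitors, stood at 2094, 1859 and 1927 CPM in replicates 1, 2 and 3, or 1960.2 ± 121 CPM (SD, n = 3). It was the 58th of 8802 genes by CPM and, at 862 CPM per kilobase, exceeded 99.1% of the genes with an annotated exon length. Dl (chromosome 3R, 19302731 to 19326217), the Notch ligand that marks stem cells, was at 1011, 852 and 915 CPM. Sox100B (chromosome 3R, 31065253 to 31083407), a Sox-family transcription factor of progenitors, was at 499, 546 and 502 CPM. The libraries lay within a narrow range for each of these genes, with coefficients of variation (CV, the SD as a percentage of the mean) of 6.19%, 8.63% and 5.15%.

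Other progenitor genes reached high levels. The headcase gene hdc was ninth by CPM and 141st per kilobase, at 6775, 5518 and 6675 CPM, and the large zinc finger and homeodomain gene zfh2 was at 4306, 3212 and 4084 CPM. Exons of another gene of the table cover 18.7% of the exon bases of zfh2, and since the strand setting of the counting is not given in the sources used here, its count is less certain than the others. Per kilobase, hdc reached 420 ± 46.4 and zfh2 311 ± 46.5 (CPM per kilobase, SD, n = 3 each). Dl reached 175 ± 15.1 and Sox100B 252 ± 12.9 on the same scale.

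Enteroblast markers were present, most of them at lower levels than the genes of the stem cell list. The median was 116 CPM per kilobase over the 8 enteroblast genes in the table and 311 over the 5 genes of the stem cell list. That list (esg, hdc, zfh2, Sox100B and Dl) is not exclusive to stem cells, since enteroblasts also express esg. The zinc finger repressor klu (chromosome 3L, 10981171 to 11009188), a Notch target in enteroblasts, was at 489, 518 and 492 CPM, with a CV of 3.18%. Sox21a, a Sox factor needed for enteroblast differentiation, was at 284, 322 and 285 CPM. Per kilobase, klu at 104 ± 3.32 and Sox21a at 127 ± 9.24 (SD, n = 3 each) lay below Dl at 175, the lowest of the stem cell list. Within the Enhancer of split complex on chromosome 3R, members differed widely. E(spl)malpha-BFM, a short gene at 449, 275 and 324 CPM, reached 517 ± 133, E(spl)mbeta-HLH 404 ± 44.8 and E(spl)m3-HLH 245 ± 41.8 CPM per kilobase (SD, n = 3 each), all above Dl on that scale. By contrast E(spl)mgamma-HLH was at 9.25 and E(spl)m7-HLH at 3.30 CPM per kilobase, and E(spl)m8-HLH received 7, 6 and 0 counts. The label stem cell thus covers libraries in which transcripts of both progenitor types were present. In bulk libraries fewer cells of a type and less RNA per cell cannot be told apart, so the ratio of stem cells to enteroblasts cannot be read from these levels.

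Of the 20 genes of the progenitor list, 16 were in the table and 15 of them were detected, against 79.4% of all genes. The remaining gene was E(spl)m8-HLH, and spdo, mira, E(spl)mdelta-HLH and E(spl)m5-HLH were not analysed here. Summed over the list, the level was 19176, 16443 and 18481 CPM in replicates 1, 2 and 3. A gene was called apart when it averaged at least 10 CPM and its highest library was more than 2 times its lowest, which held for 341 of 5422 genes (6.29%). None of the 13 progenitor genes that averaged at least 10 CPM was apart in this sense, and their median CV was 8.63%, against 13.5% for the 5422 genes. These comparisons were not matched for level. All of the 13 but Su(H) averaged more than 50 CPM, and at that level only 51 of 2718 genes were apart. Their count of none therefore does not set them off from other abundant genes.

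**Figure D1:**
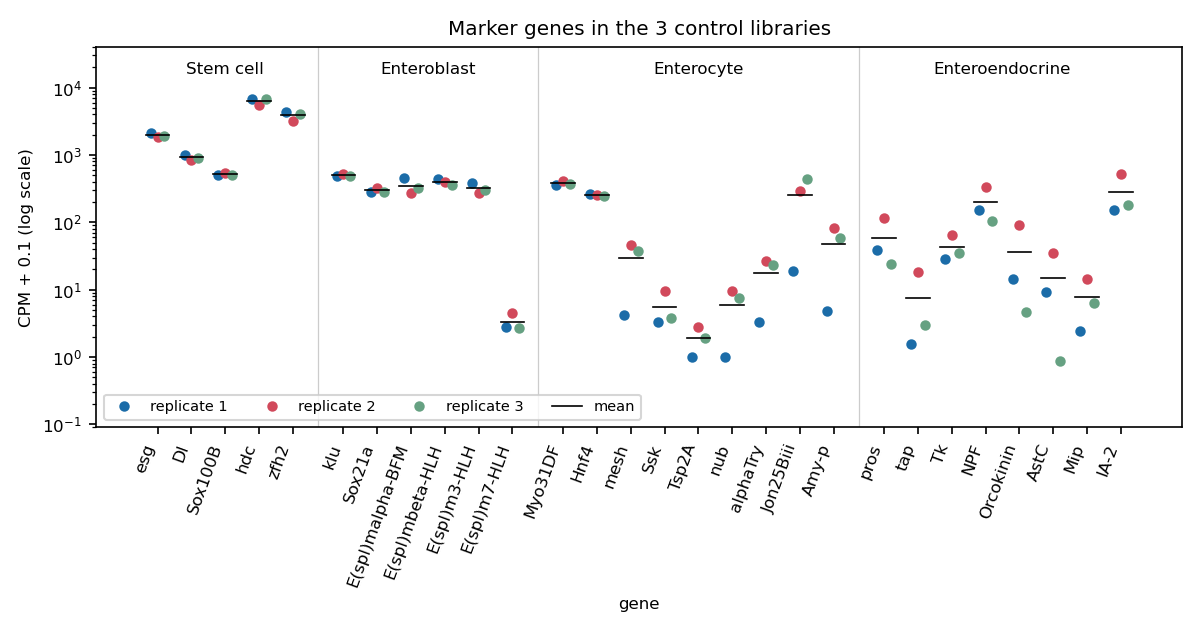
CPM plus 0.1 on a log scale for marker genes of 4 cell types, with a point for each control library and a bar for the mean. Points of the progenitor gene esg (2094, 1859 and 1927 CPM) lie almost on each other. Those of the enterocyte gene Jon25Biii (18.5, 289 and 443 CPM) and the enteroendocrine gene Orcokinin (14.4, 91.0 and 4.56 CPM) are spread. Not every gene of a type behaves so, since the enterocyte gene Hnf4 has a CV of 3.86% and the enteroblast gene E(spl)malpha-BFM 25.7%. The genes shown are a selection, not matched for level, and the even enteroendocrine genes ITP, unc-13, svr and Ptx1 are not shown.

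Enterocyte genes split into a group with even levels and a group that differed between libraries. Myo31DF, the unconventional myosin of the brush border, was at 358, 411 and 373 CPM, and Hnf4, a nuclear receptor of lipid metabolism, at 267, 256 and 247 CPM. At 88.2 and 47.8 CPM per kilobase they stood above the median of 10.1 over all genes with a length. The POU factor nub, known as the enterocyte marker Pdm1, had only 5, 53 and 48 counts, or 0.900, 9.42 and 7.30 CPM. The smooth septate junction gene mesh was at 4.14, 46.6 and 37.7 CPM, and its partners Ssk and Tsp2A did not exceed 9.42 and 2.67 CPM in any library. For nub and mesh, replicate 1 was far below the other libraries. In the whole enterocyte identity list 7 of 17 genes in the table were detected, against 79.4% of all genes. Of the 6 that averaged at least 10 CPM, mesh, lab and Npc2e were apart, against 6.29% of all genes. Each was highest in replicate 2, and 3.21% of all genes were apart in that way. However, most exon bases of Npc2e lie in exons of another gene of the table, so its count is uncertain.

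Digestive enzymes were low in replicate 1 and about 10 times higher in replicates 2 and 3. The 41 enzyme genes in the table summed to 125 CPM in replicate 1 (95% Wilson interval 116 to 135), 1333 CPM in replicate 2 (1304 to 1364) and 1204 CPM in replicate 3 (1177 to 1230). Together they took 10.7 times as much of replicate 2 as of replicate 1, and 9.64 times as much of replicate 3 as of replicate 1. The intervals cover counting error only. The trypsin gene alphaTry (chromosome 2R) showed the same order, with 18, 151 and 150 counts, or 3.24, 26.8 and 22.8 CPM. Of the 41 genes 18 were detected, against 79.4% of all genes. Among the 21 that averaged at least 10 CPM, 20 were apart, against 6.29% of all genes. The lowest value was in replicate 1 for 18 of the 20, and 2.49% of all genes were apart in that way. Genes can pass that level through a single high library, so this count describes the genes that passed and not the 41. Without replicate 1 it was 10 of 22, against 3.25% of all genes. Without replicate 2 it was 14 of 15, against 1.66%, and without replicate 3 it was 18 of 19, against 4.63%.

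The enzyme families did not follow the same order in replicates 2 and 3. Jonah proteases, serine endopeptidases secreted by enterocytes, summed to 55.2, 529 and 913 CPM in replicates 1, 2 and 3 over the 16 members in the table. The most abundant of them, Jon25Biii (chromosome 2L), was at 18.5, 289 and 443 CPM. All 10 Jonah genes that averaged at least 10 CPM were apart, with replicate 3 highest and replicate 1 lowest, while 1.24% of all genes were apart with replicate 3 highest.

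Carbohydrate-digesting enzymes were instead highest in replicate 2. Maltases, which split disaccharides, summed to 30.0, 305 and 76.2 CPM over 8 genes, and Mal-A4 was at 3.96, 78.4 and 11.0 CPM. Lysosomal-type alpha-mannosidases summed to 17.5, 191 and 13.5 CPM over 4 genes, and LManVI was at 11.2, 129 and 8.67 CPM. For the mannosidases replicate 3 was thus as low as replicate 1, and replicate 2 was 14.1 times replicate 3. Amylases summed to 7.92, 111 and 78.0 CPM, and trypsins to 6.84, 54.2 and 37.3 CPM. The lipase gene magro (mag) was at 5.40, 142 and 84.7 CPM. Members of these families are similar in sequence, and how reads shared between copies were counted is not given in the sources used here, so values of single members are less certain than family sums. Grouping by family was chosen after the values had been seen.

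**Figure D2:**
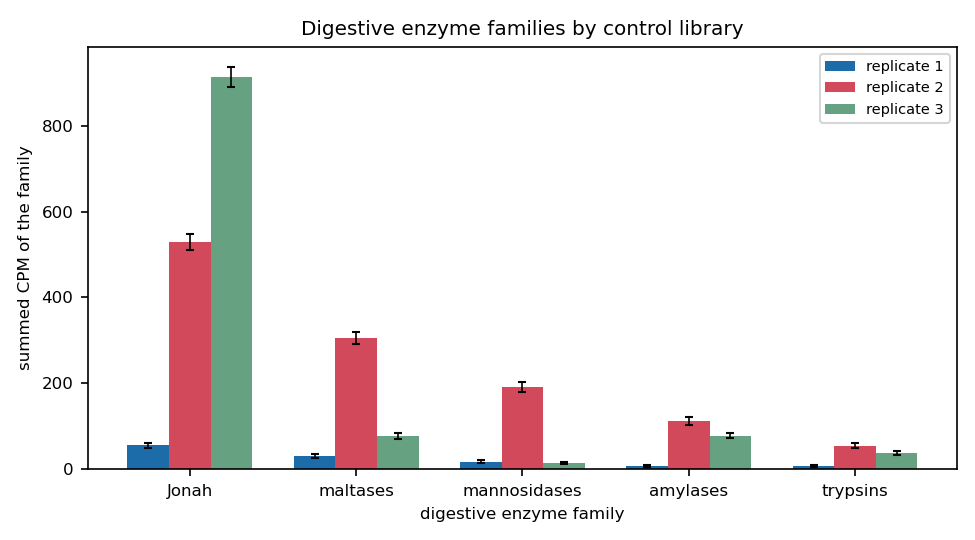
Summed CPM of 5 families of digestive enzymes in each control library, with 95% Wilson intervals for counting error as error bars. Jonah proteases rise from 55.2 CPM in replicate 1 to 913 CPM in replicate 3, whereas maltases (305 CPM) and mannosidases (191 CPM) are highest in replicate 2.

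Enteroendocrine genes were highest in replicate 2. The homeodomain factor pros (chromosome 3R, 11328480 to 11407627) was at 38.5, 114 and 24.3 CPM. Spread over its long exons this was 2.37 ± 1.95 CPM per kilobase (SD, n = 3), and 22.4% of genes had a lower value. The neurogenic factor tap had 8, 102 and 19 counts. IA-2, a transmembrane phosphatase-like protein of dense-core vesicles, was at 153, 515 and 180 CPM. The prohormone convertase gene amon was at 20.5, 43.9 and 9.43 CPM. In each of these genes replicate 2 was the highest library.

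Peptide hormone genes showed the same library order at the top. Neuropeptide F (NPF) was the most abundant per kilobase, with 152, 336 and 104 CPM and a mean of 330 ± 205 CPM per kilobase (SD, n = 3). Tachykinin (Tk, chromosome 3R, 11994175 to 12005473) was at 28.8, 64.7 and 35.4 CPM. Orcokinin was at 14.4, 91.0 and 4.56 CPM, and replicate 2 was 19.9 times replicate 3. Allatostatin C (AstC) had 51, 195 and 5 counts and Mip 13, 81 and 41. The other hormones of the list were near the floor, and AstA, Dh31, CCHa1 and CCHa2 had at most 7 counts in any library.

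ITP, the ion transport peptide gene, differed from these hormones. It was at 334, 317 and 292 CPM, with a CV of 6.69%. Together with the vesicle priming factor unc-13 (771, 603 and 738 CPM), the carboxypeptidase gene svr (317 ± 44.3 CPM, SD, n = 3) and the homeobox gene Ptx1 (217, 244 and 172 CPM), it formed a set of listed enteroendocrine genes that were abundant in every library.

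The table holds 10 hormone genes, of which 5 averaged at least 10 CPM, and 4 of these were apart, each with its highest value in replicate 2. Of the 21 genes for secretion and fate 13 averaged at least 10 CPM, and 6 were apart, again with replicate 2 highest for all 6 and replicate 3 lowest for 5. Over all genes 3.21% were apart with replicate 2 highest and 1.66% with replicate 3 lowest. As for the enzymes, these counts describe the genes that reached the level. Without replicate 2, none of the 3 hormone genes and 1 of the 10 secretion and fate genes at that level were apart. In that setting 89 of all 5368 genes were apart (1.66%). The summed hormone level was 541, 861 and 444 CPM (Wilson intervals 522 to 561, 837 to 886 and 428 to 460). The summed enzyme and hormone levels therefore did not rank the libraries in the same way. Replicate 3 had 9.64 times the summed enzyme level of replicate 1 and 0.821 times its summed hormone level. This holds for the sums and not for every gene, and ITP was a large part of each hormone sum. ITP, NPF, Orcokinin and AstC were lower in replicate 3 than in replicate 1, but Tk and Mip were higher. Among the enzymes, the summed mannosidases were lower in replicate 3 than in replicate 1.

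Markers of other tissues were a mixture of genes near the floor and genes that were clearly detected. At least 10 counts in every library were found for 8 of 17 visceral muscle genes in the table, 3 of 7 hemocyte genes, 2 of 8 fat body genes, 5 of 6 neuronal and glial genes and 2 of 3 germline genes, against 79.4% of all genes. On the muscle list 13 genes such as Mhc, Act57B and Mlc2 summed to 41.4, 46.0 and 43.3 CPM, and Mhc was at 0.983 CPM per kilobase. The other 4 genes, set apart after their values had been seen, were higher. Msp300, a giant nesprin that links nuclei to the cytoskeleton, was at 7425, 6959 and 7478 CPM, Mef2 at 338, 361 and 345 CPM, the RNA-binding protein gene how at 102, 101 and 106 CPM, and Actn, which encodes the actin crosslinker alpha-actinin, at 89.6 ± 6.48 CPM (SD, n = 3). Per kilobase these 4 genes were at 104, 37.9, 20.2 and 17.0. The hemocyte gene Hml had 0 counts in all 3 libraries, and the collagen genes Col4a1 and vkg had at most 5, while the scavenger receptor crq was at 269, 245 and 330 CPM. Fat body genes summed to 23.9, 19.7 and 18.2 CPM over 8 genes. On the neuronal and glial list, elav was at 220, 192 and 206 CPM and moody at 220, 225 and 240 CPM, while the synaptic genes brp, Syt1 and nSyb were highest in replicate 2, at 39.5, 19.7 and 11.9 CPM. The germline gene nos had 0 counts in all libraries and tud was at 496, 519 and 488 CPM. Tracheal genes, with 2 in the table, had 1, 3 and 7 counts in all. Genes of the Malpighian tubule and hindgut, tissues removed at dissection, summed to 20.2, 6.04 and 4.26 CPM over 2 genes. What part cells of these kinds had in any result was not tested.

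**Figure D3:**
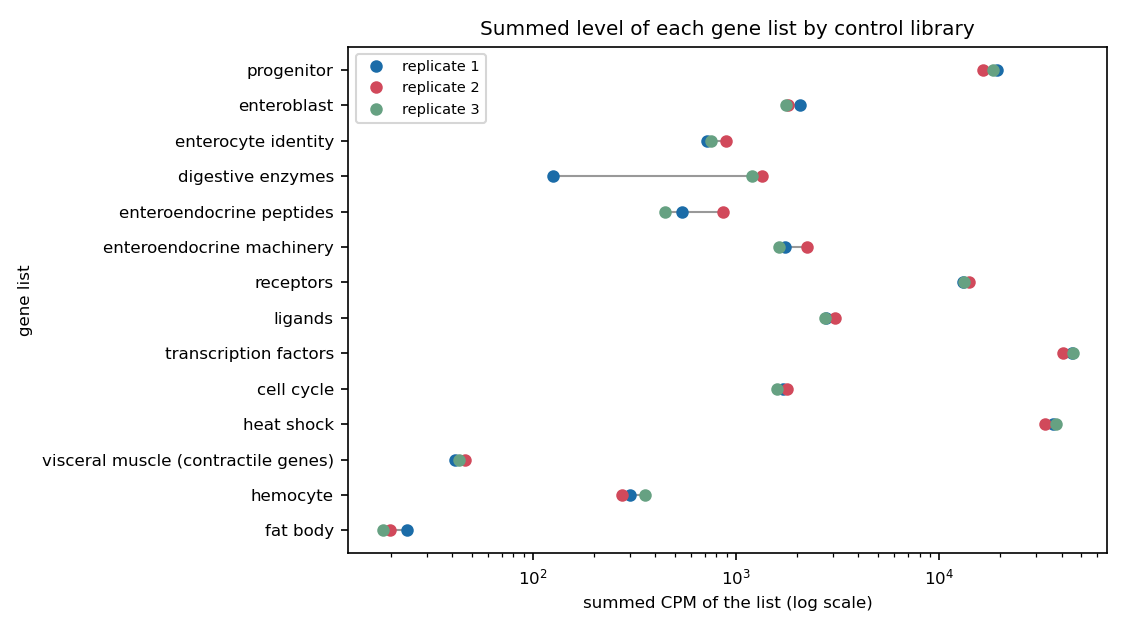
Summed CPM of 14 gene lists on a log scale, with a point for each control library and a line from the lowest to the highest. The visceral muscle row, labelled contractile genes, shows only 13 genes. It leaves out Msp300, Mef2, how and Actn, which were set apart after their values had been seen. With these genes the list summed to 7996, 7563 and 8054 CPM in replicates 1, 2 and 3. The points of lists such as heat shock genes (33019 to 37382 CPM) nearly coincide, but those of the digestive enzymes run from 125 to 1333 CPM and those of the hormones from 444 to 861 CPM.

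Among growth factor and cell contact ligands, those of the EGFR and Notch pathways led. Per kilobase, spitz (spi), an EGFR ligand, reached 294 ± 19.0 and Dl 175 ± 15.1 (CPM per kilobase, SD, n = 3 each). The tumour necrosis factor ligand eiger (egr) followed at 147 ± 18.6 and the axon guidance ligand slit (sli) at 79.4 ± 23.2 CPM per kilobase (SD, n = 3 each). The JAK/STAT ligands upd2 and upd3 were at 29.6 and 23.4, and the BMP ligand gbb at 21.5 CPM per kilobase, while dpp had at most 4 counts in any library. The EGFR ligand vein (vn), known from visceral muscle, was at 35.3, 94.6 and 49.7 CPM. Of the 10 ligand genes that averaged at least 10 CPM, vn and ImpL2 were apart, against 6.29% of all genes. The metalloprotease kuz, which cleaves Notch and Delta, was at 1231, 1228 and 1428 CPM. Of the EGFR ligand processing genes, Star (S) was at 67.0 and rho at 2.35 CPM per kilobase on average.

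Receptor genes had a median CV of 10.1%, against 13.5% for all genes of at least 10 CPM, a comparison not matched for level. Egfr (chromosome 2R) was at 2339, 2392 and 2278 CPM, a CV of 2.45%, and at 336 ± 8.25 CPM per kilobase (SD, n = 3) it led the list. Next came the integrin subunits mew, at 325 ± 4.89, and mys, at 266 ± 2.62 CPM per kilobase (SD, n = 3 each), which bind laminin of the basement membrane. The Slit receptor robo2 reached 260 ± 14.4 and the proteoglycan Sdc 200.2 ± 11.7 CPM per kilobase (SD, n = 3 each). N, the Notch receptor, was at 1184, 1397 and 1286 CPM and 127 ± 10.5 CPM per kilobase (SD, n = 3).

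Receptors of several other pathways lay lower. On the per kilobase scale the Wnt receptor fz2 was at 69.7, the BMP receptor tkv at 68.2, the insulin receptor InR at 58.0, the JAK/STAT receptor dome at 47.8, the Wnt co-receptor arr at 40.5 and the PDGF and VEGF receptor homologue Pvr at 30.5. The peptidoglycan receptor PGRP-LC was at 77.4 and the Hedgehog transducer smo at 7.68, while the Hedgehog receptor ptc had 1, 8 and 5 counts. In dome, replicate 2 was higher (333 CPM) than replicates 1 and 3 (190 and 176 CPM), and in InR likewise (807 against 558 and 614 CPM). Of the 54 listed receptors 41 were in the table and 35 of these were detected, against 79.4% of all genes. Of the 31 that averaged at least 10 CPM, Tl, TrpA1 and Mmp2 were apart (9.68%, against 6.29% of all genes), all with replicate 2 highest (3.21% of all genes). Mmp2 is a metalloprotease on the receptor list, not a receptor.

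The table holds 104 listed transcription regulators, and 90 of them were detected, against 79.4% of all genes. By level per kilobase esg came first at 862 ± 53.4, followed by bunched (bun) at 383 ± 78.2, zfh2 at 311 ± 46.5 and kayak (kay), the fly Fos, at 270 ± 15.8 (CPM per kilobase, SD, n = 3 each). Stat92E, the JAK/STAT effector, was at 1232, 1244 and 1309 CPM, and the EGFR pathway repressor capicua (cic) at 2321, 2417 and 2351 CPM. Both were nearly equal in the 3 libraries, with CVs of 3.25% and 2.08%. Factors of gut identity were present, with fkh at 197, GATAe at 118 and cad at 89.5 CPM per kilobase.

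Pathway effectors spanned a wide range. The BMP effector Mad was at 207, foxo at 158, pnt at 63.4, yki at 45.3 and its partner sd at 49.3 CPM per kilobase, and Su(H), the DNA-binding effector of Notch, at 6.07. The gene ovo, which encodes Shavenbaby, received 4, 64 and 3 counts, so it was near the floor except in replicate 2. Regional identity genes included lab, known from the copper cell region, at 30.8, 42.3 and 7.76 CPM, and Abd-B with 26, 23 and 30 counts. Of the 84 regulators that averaged at least 10 CPM, 5 were apart, namely pros, lab, Ets21C, srp and ci, with replicate 2 highest except for ci. This was 5.95%, against 6.29% of all genes. Their median CV was 8.98%.

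**Figure D4:**
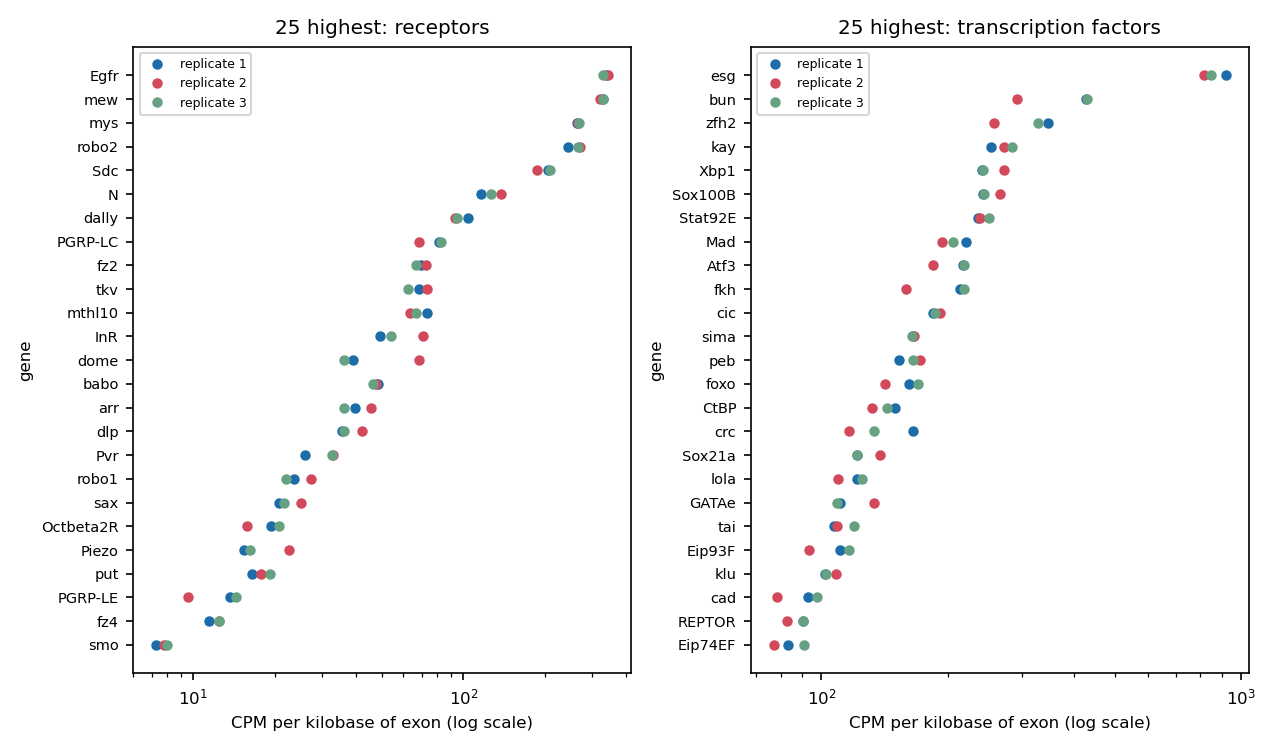
CPM per kilobase of exon on a log scale for the 25 listed receptor genes and the 25 listed transcription regulators with the highest means, with a point for each control library. Egfr (336 CPM per kilobase) and esg (862) lead, and most genes show points that nearly coincide.

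Heat shock genes were among the most abundant genes of the control cells. Their products are chaperones, and several are textbook examples of induction by raised temperature. All 19 heat shock list genes in the table were detected, against 79.4% of all genes. They summed to 36384, 33019 and 37382 CPM, or 35595 ± 2286 CPM (SD, n = 3). Per kilobase, Hsp26 reached 3515 ± 462, the constitutive Hsc70-4 2918 ± 287, Hsp83 2467 ± 147 and Hsp68 2152 ± 194 (CPM per kilobase, SD, n = 3 each). The Hsp70 copies Hsp70Ab and Hsp70Bb were at 3719 ± 1287 and 2023 ± 268 CPM (SD, n = 3 each). These are near-identical copies, so their split is uncertain, and the 6 Hsp70 genes summed to 7552, 4648 and 7112 CPM. Only Hsp70Ab of the 19 was apart (6.29% of all genes were), with 4782.5, 2288 and 4086 CPM.

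Genes of the early stress response were mostly even between libraries. The JNK target puc, a phosphatase that feeds back on the JNK pathway, was at 794, 758 and 842 CPM, and the bZIP factor Atf3 at 1529, 1293 and 1533 CPM. Jra, the fly Jun, was at 108 ± 8.71 CPM (SD, n = 3) and Gadd45 at 152 ± 7.30 CPM (SD, n = 3). Of the 9 stress genes that averaged at least 10 CPM, Ets21C, an Ets-family factor, was apart, with 60.3, 137 and 80.8 CPM, where 6.29% of all genes were apart. Immune effectors and regulators on the antimicrobial list summed to 184 ± 2.05 CPM (SD, n = 3) over 6 genes, most of it from pirk, an inhibitor of the Imd pathway, at 164, 130 and 142 CPM. Of the 3 such genes that averaged at least 10 CPM, only PGRP-SC2, an amidase that degrades peptidoglycan, was apart, against 6.29% of all genes. It was at 0.720, 20.4 and 23.7 CPM. The median CV of the 3 was 31.9%, against 13.5% for all genes at that level, and 3 genes are few for such a comparison.

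Cell cycle genes were detected at moderate levels. All 29 in the table were detected, against 79.4% of all genes. Their median was 11.7 CPM per kilobase, against 10.1 for all genes with a length. Top2, the topoisomerase of replicating cells, was at 377, 403 and 321 CPM, and Cyclin A (CycA) at 109, 105 and 96.0 CPM. The cyclin-dependent kinase inhibitor dap was at 88.2, 80.0 and 75.9 CPM and the Cdc25 phosphatase string (stg), which triggers mitosis, at 13.1, 9.96 and 16.0 CPM. Of the 25 genes that averaged at least 10 CPM, PCNA, Mcm6 and Cdk1 were apart, which is 12.0%, against 6.29% of all genes.

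The gene with the highest CPM was that of the translation elongation factor eEF1alpha1, at 13682, 15464 and 14293 CPM. Tet, which encodes the fly homologue of TET dioxygenases, followed at 10142 ± 819 CPM, and 7SK RNA, a regulator of transcription elongation, at 9382 ± 1299 CPM (SD, n = 3 each), or 8122, 10717 and 9307 CPM by library. Further genes among the 20 highest were Hsc70-4, Hsp83, Msp300, the RNA of RNase MRP, hdc, the transcriptional regulator spen, lncRNA:CR42862, bun, the spectraplakin shot, Hsp68, the poly(A)-binding protein pAbp, eEF2, the cytochrome oxidase subunit mt:CoI, zfh2, Hsp70Ab and Hsp26. The fifth highest was FBgn0037636, for which the tables used here give no symbol, at 7478 ± 1369 CPM (SD, n = 3). Per kilobase the leading protein-coding genes were eEF1alpha1 at 5877 ± 367 and RpL41 at 3963 ± 1649 (CPM per kilobase, SD, n = 3 each). RpL41, whose exons span 320 bases, was at 1728, 692 and 1385 CPM, lowest in replicate 2. Not all short transcripts followed that order, since 7SK RNA (444 bases) and the RNA of RNase MRP (382 bases) were highest in replicate 2.

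The white gene (w), chosen here after its value was seen, was at 1242, 1590.3 and 1369 CPM. It encodes an eye pigment transporter subunit and serves as a visible marker in many fly transgenes, and counts from the endogenous gene and from any transgene copy cannot be told apart.

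The spread between libraries was then described over all genes. With edgeR the common biological coefficient of variation was 21.0% over 6952 genes, 16.6% without replicate 2, 25.1% without replicate 3 and 20.8% without replicate 1. Of the 341 genes that were apart, 174 were highest in replicate 2 (3.21% of the 5422 genes), 100 in replicate 1 (1.84%) and 67 in replicate 3 (1.24%). The lowest library was replicate 1 for 135 (2.49%), replicate 2 for 116 (2.14%) and replicate 3 for 90 (1.66%). Without replicate 1 the count was 176, without replicate 2 it was 89, and without replicate 3 it was 252.

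The 341 genes were of several kinds. The enterocyte and enzyme lists held 23 of them, among 6 and 21 genes that averaged at least 10 CPM. The enteroendocrine lists held 10, among 5 hormone genes and 13 secretion and fate genes at that level. The progenitor list held none, among 13. Over all genes the share was 6.29%, and 293 of the 341 belonged to no list. Small nucleolar RNAs made up 10, out of 13 that averaged at least 10 CPM, against 6.29% of all genes. All 10 were highest in replicate 1, as were 1.84% of all genes. Genes of the mitochondrial genome made up 12, out of 17 at that level, against 6.29% of all genes. None of these 12 was highest in replicate 2. Protein-coding genes with at least 1000 exon bases accounted for 250, out of 4843 at that level. This share was slightly below the 6.29% of all genes.

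Among genes of at least 20 CPM on average, LManVI had the largest CV, 139%, followed by CG8560 at 136%, LManV at 133%, Mal-A4 at 132%, Mal-A1 at 130%, Orcokinin at 129% and Jon99Fi at 127%. The other genes among the 15 most variable were Npc1b, a sterol transporter homologue of the gut, CG13492, CG31343, CG7381, the calcium channel subunit Ca-alpha1T, bru3, CG17571 and CG8997. Of these 15 genes, CG8560 and Jon99Fi were highest in replicate 3 and the others in replicate 2. Among genes of at least 100 CPM the smallest CVs were those of Ns2 (0.275%), KCNQ (0.365%), Tao (0.473%), Cka (0.509%) and Cnx99A (0.509%). Ns2 was at 110 CPM in every library, KCNQ, a potassium channel gene, at 372, 370 and 370 CPM, and the kinase gene Tao at 332, 334 and 336 CPM.

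**Figure D5:**
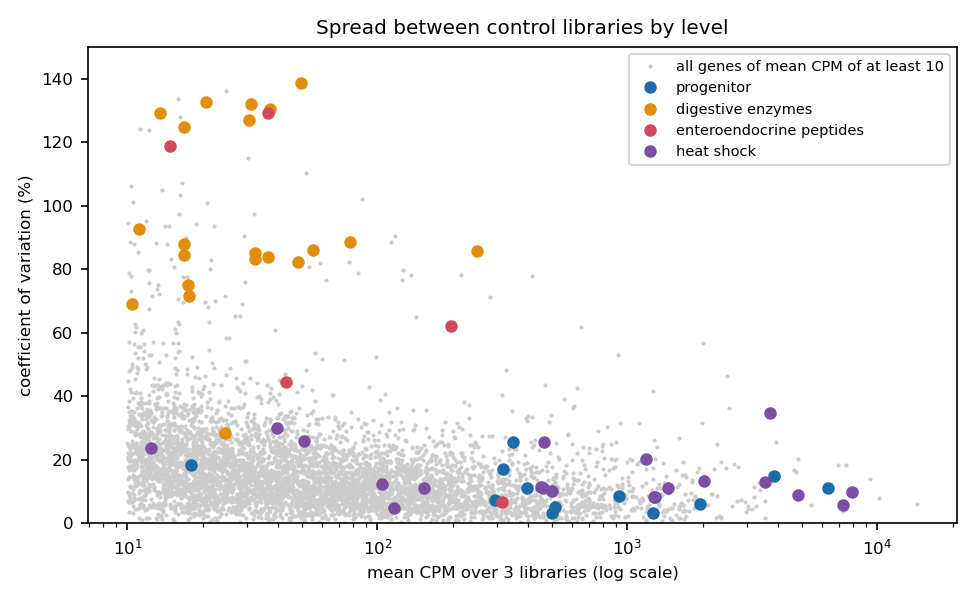
Coefficient of variation over the 3 control libraries against mean CPM (log scale) for 5422 genes of at least 10 CPM, with 4 gene lists in colour. Most progenitor genes lie low at high CPM, but E(spl)malpha-BFM is at 25.7% and Su(H), with a mean of 17.9 CPM, at 18.3%. Digestive enzymes reach from 69.1% to 139% except for a single gene at 28.5%, and the median over all genes is 13.5%.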

How the data were processed

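The authors deposited a raw read count for each gene. The submitters' processing notes name FastQC 0.11.5, STAR 2.5.2b, HTSeq 0.6.0, edgeR and build dm6. The annotation, strand setting, use of molecular identifiers and choice of the 8802 genes are not given in the sources used here, so column totals may be less than the full depth. Per the labels, single 100 nt reads came from Ovation SoLo libraries. The authors' log2 fold changes, p-values and scores (calls coded by the authors) for 5 comparisons between groups were deposited in the same table and not used.

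CPM used the column totals, which limit precision to a floor of 3 counts. Exon lengths are unions of exons in Ensembl release 115 (BDGP6.54, the dm6 assembly). Of the identifiers, 8686 were in it and 22 more were matched by symbol. Spread was estimated with edgeR 4.0.16 (R 4.3.3, estimateDisp, TMM factors, filterByExpr with a minimum count of 10, minimum total of 15 and minimum proportion of 0.7) and checked on simulated data. DESeq2 1.42.0 gave alternative size factors. Intervals used SciPy 1.17.1.

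There is a single group, so no test between groups was made. Replicates were taken from the sample titles. Members and gene lists (22 lists, 357 of 464 symbols in the table) were chosen with earlier results of these data known. Genes named were the 20 highest by CPM, the highest per kilobase, the 15 most and 5 least variable, and members of the lists. Symbols absent from the table were not analysed here.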

Additional observations from a re-analysis of the deposited data

How the results depend on the processing

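The levels and counts of the control libraries kept their values within the spread between libraries, or within 1.5 times for counts, under TMM factors, DESeq2 size factors, a minimum of 3 counts and the longest transcript as gene length, for the results where these were run. A minimum of 3 counts could not break the limit of 1.5 times, which exceeds the number of genes available. It gave 7842 detected genes against 6987, 38 receptors against 35 and 97 regulators against 90. The TMM and DESeq2 factors ran only from 0.976 to 1.032, so they could move mean levels little. The share of counts in the most abundant genes was 8.27% for 10 genes and 34.8% when genes with exons shared with another gene of the table were left out, against 29.6%. The count of genes over 2-fold apart was 2366 of 8706 with no filter on low counts and 51 of 2718 at a mean of at least 50 CPM, and these settings tested other numbers of genes than 5422. In an alternative added after the data were seen, it was 250 among protein-coding genes of at least 1000 exon bases. Leaving out a library gave 89 to 252 genes apart, and a common biological coefficient of variation from 16.6% to 25.1%, against 25.5% with no filter. No paired analysis was possible because a single group was described and no groups were compared. With 3 libraries on 3 different days, day and library cannot be told apart, and genes under the floor were not detectable at this depth.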
